A study of Homo sapiens with 12 samples.

Results

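The regions described here are ChIP-seq peaks on the alternate contigs of the human genome, the extra pieces that stand beside the chromosomes. A peak was a member where the name of its sequence held the character _. By this rule 321 of 1493372 peaks in 10 lists were members, or 0.0215%. They lay on 39 contigs that belong to 20 parent chromosomes, and 321 of the 321 were on sequences named as alternate contigs. No list held a peak on an unplaced or unlocalised sequence, on chromosome Y or on the mitochondrial genome. Each contig is given by its name in the files without the closing suffix, and positions count from 1 at the start of that contig.

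Chromatin was taken from HEK293T cells, a transformed human embryonic kidney line, of wild type genotype and with no treatment named. After 1% formaldehyde for 5 min and sonication it was precipitated with antibodies to INTS13, INTS11, HDGF, ZEB1 or ZNF609, in 2 libraries per protein, and read as paired ends of 150 bp. The antibodies to INTS13, HDGF and ZEB1 came from Proteintech, that to INTS11 from Atlas, and that to ZNF609 from an earlier study. The study asked whether INTS13 and transcription factors that bind it meet at the same sites. The 2 input libraries were not analysed here, so no peak below was set against input by its own reads. Nothing says that the 2 libraries of a protein were separate cultures, and p-values measure only the spread between these libraries, which may be technical.

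The reference assembly keeps alternate contigs for places where people carry very different versions of a stretch of DNA, such as the MHC and the immune receptor genes. A contig repeats much of the sequence of its chromosome, so a read from a shared stretch can fit both copies, and an aligner has to place it at one, at both or at neither. Integrator is the machine that cuts RNA emerging from RNA polymerase II, with INTS11 as the cutting subunit and INTS13 as a further subunit. HDGF reads chromatin through its PWWP domain. ZEB1 represses epithelial genes such as that of E-cadherin, and ZNF609 is another protein with a zinc finger.

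INTS13 gave the most peaks on alternate contigs, with 93 in replicate 1 and 68 in replicate 2. INTS11 gave 46 and 33, HDGF 22 and 12, ZEB1 15 and 8, and ZNF609 16 and 8. INTS13 thus held 161 of the 321. It also had the longest lists, of 417057 and 341981 peaks out of 1493372, and a mean share of 0.0211% beside 0.0215% over all lists. The lists differ in length, from 26417 peaks in ZNF609 replicate 2 to 417057 in INTS13 replicate 1.

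As a share of its list, ZNF609 had the most on alternate contigs, with 0.0346% in replicate 1 and 0.0303% in replicate 2, a mean of 0.0325% ± 0.00307 (SD, n = 2). INTS11 followed with 0.0235% and 0.0311%, a mean of 0.0273% ± 0.00533 (SD, n = 2). ZEB1 had 0.0287% and 0.0177%, a mean of 0.0232% ± 0.00777 (SD, n = 2). INTS13 had 0.0223% and 0.0199%, a mean of 0.0211% ± 0.00171 (SD, n = 2). HDGF had the least, 0.0149% and 0.0105%, a mean of 0.0127% ± 0.00314 (SD, n = 2). Both HDGF libraries lay below the other 8, and both ZNF609 libraries lay above both INTS13 libraries. A group of 2 libraries against 2 cannot give an exact p below 0.333, so no pair of proteins was tested. This order rests in part on chr2_KI270772v1, the contig with the most peaks. Without it the shares were 0.0232% in INTS11, 0.0192% in ZNF609, 0.0186% in INTS13, 0.0151% in ZEB1 and 0.0116% in HDGF, so INTS11 and no longer ZNF609 was first.

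These shares rest on few peaks. The 95% Clopper-Pearson interval covers counting error only and takes peaks as independent, so it may be too narrow. In INTS13 replicate 1, 87.1% of members lay within 5 kb of another, beside 90.2% of main-chromosome peaks. The interval was 0.0180% to 0.0273% for INTS13 replicate 1. It was 0.0131% to 0.0597% for ZNF609 replicate 2, and the interval of HDGF replicate 1, 0.00933% to 0.0225%, overlapped both. Libraries of 1 protein differed in their share by 0.39 on the log2 scale on average, against 0.63 over all 945 pairings of the 10 libraries. An exact one-sided permutation test over these pairings gave p = 0.0540, and 0.270 after Benjamini-Hochberg adjustment over 5 tests. Counted as covered bp in place of peaks, the difference was 0.25 and p = 0.00317 by the same exact test. With peaks, the exact p was 0.0476 without INTS11 and 0.0286 without ZEB1. It was 0.143 without INTS13, 0.143 without ZNF609, 0.314 without HDGF and 0.177 without chr2_KI270772v1. The p-values of these alternatives were not adjusted.

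**Figure D1:**
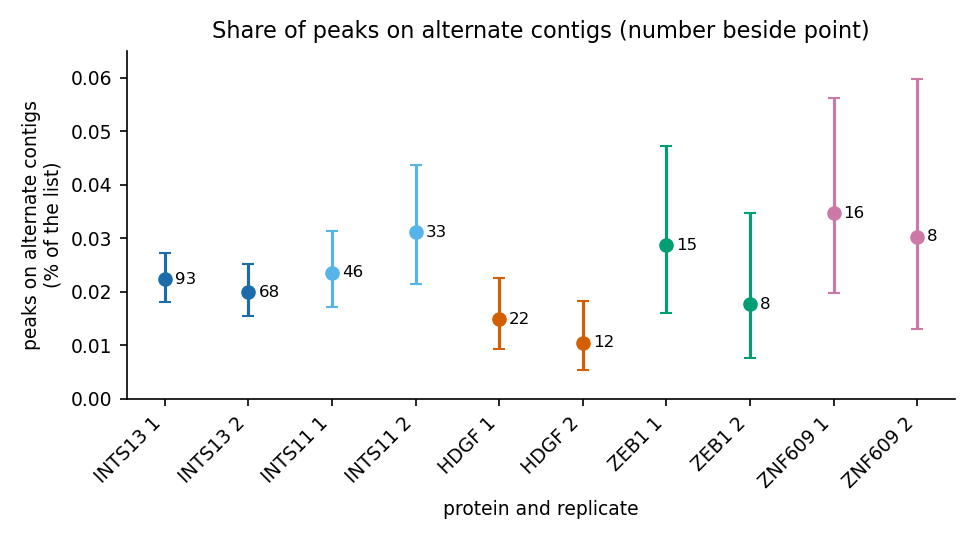
Peaks on alternate contigs as a percent of all peaks of a list, on the vertical axis, for each protein and replicate. Points are single libraries, bars are 95% Clopper-Pearson intervals, which take peaks as independent, and the number beside a point is its count of peaks. Both HDGF libraries lie lowest, at 0.0149% and 0.0105%, and the intervals of most libraries overlap.

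The members were unevenly spread over the contigs. The 10 contigs with the most peaks held 223 of the 321, or 69.5%, while 10 contigs held a single peak and 14 had peaks in 1 library alone. On each of the 20 contigs with 5 or more peaks, all the peaks fell within 1.27 to 29.9 kb, with a median of 5.60 kb, and on 16 of the 20 within 15 kb. The lengths of the contigs are not used here, so how much of each contig these stretches cover is not given.

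The contig chr2_KI270772v1 held the most, 52 peaks between 26886 and 56827, and was the only one of the 39 with a peak in all 10 lists. INTS13 had 11 and 8 peaks on it, INTS11 7 and 5, HDGF 2 and 1, ZEB1 5 and 3, and ZNF609 7 and 3. It was the leading contig of 4 of the 5 proteins. It held 10 of 24 ZNF609 peaks (41.7%), 8 of 23 ZEB1 peaks (34.8%), 12 of 79 INTS11 peaks (15.2%) and 19 of 161 INTS13 peaks (11.8%). HDGF differed, with 3 of its 34 there and 9 of 34 (26.5%) on chr21_GL383581v2.

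Next came chr14_KI270846v1, one of the contigs of the immunoglobulin heavy chain locus, with 30 peaks between 823099 and 844028. All of INTS13, INTS11, ZEB1 and ZNF609 had peaks there in both libraries, and HDGF had none in either. The contig chr7_KI270803v1, which carries a version of the T-cell receptor beta locus, had 28 peaks between 505758 and 525872. INTS13 had 8 and 9 of these, INTS11 4 and 3 and ZEB1 3 and 1, with none of HDGF or ZNF609.

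On chr21_GL383581v2, 23 peaks lay between 70230 and 78863, of which INTS13 had 5 and 3, INTS11 3 and 2, HDGF 6 and 3, and ZEB1 1 in replicate 1. The contig chr15_GL383555v2 had 20 peaks between 194142 and 206294, 13 of them of INTS13. The other contigs among the leading 10 were chr12_GL877875v1 with 18 peaks, chr22_KI270876v1 with 16, chr13_KI270841v1 with 13, chr11_KI270830v1 with 12 and chr1_KI270763v1 with 11. On chr1_KI270763v1 the protein with most peaks was INTS11, with 2 and 3, and HDGF had 2 and 2. On chr13_KI270841v1 each of INTS13, INTS11, ZEB1 and ZNF609 had a peak in both libraries.

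INTS13 had a peak on 37 of the 39 contigs, and on 23 of them in both libraries. Of the 18 contigs with 1 protein alone, 16 had INTS13. These counts take no account of list length, and the INTS13 lists were the longest. INTS11 reached 20 contigs, HDGF 14, ZNF609 9 and ZEB1 8. Counts of peaks over the 39 contigs had a Spearman rho between 0.51 and 0.80 for the 5 pairs of libraries of the same protein, with a median of 0.63. For the 40 pairs of different proteins the median was 0.44, between -0.09 and 0.79. These are descriptions, since many contigs are at 0 in both libraries of a pair and all libraries come from 1 cell line.

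**Figure D2:**
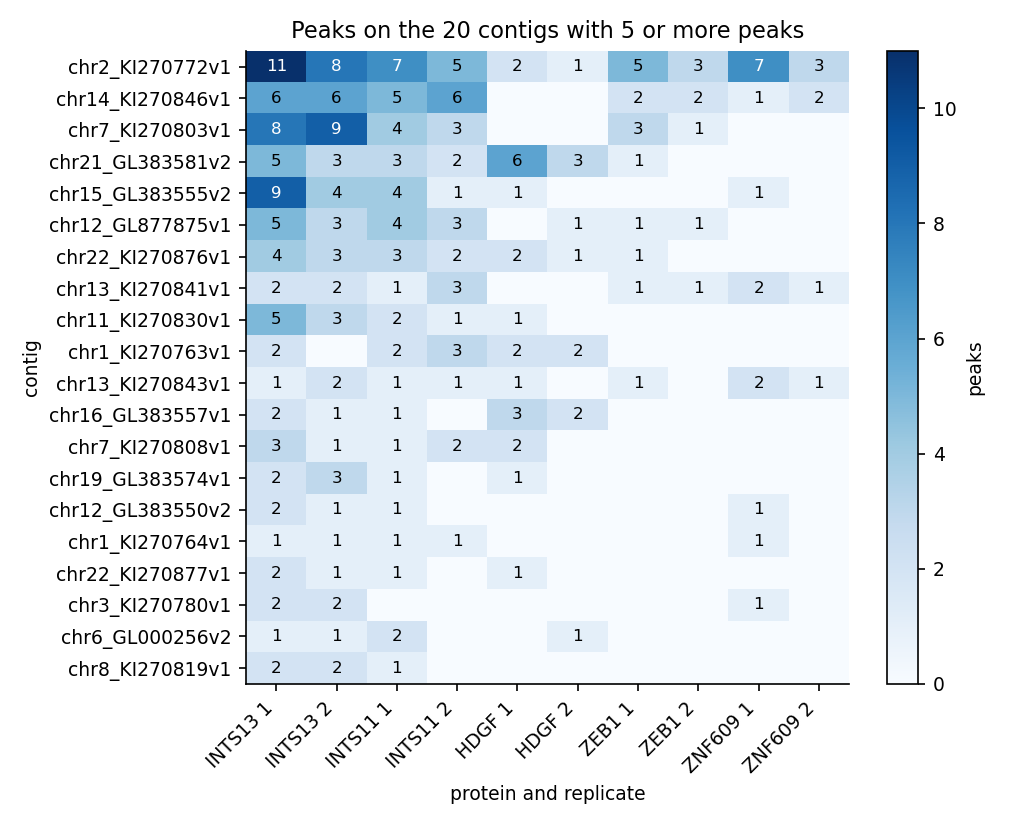
Number of peaks, as colour and as the figure in each cell, on the 20 contigs with 5 or more peaks (rows) in each of the 10 lists (columns). The row of chr2_KI270772v1 is the only one filled in all 10 lists, and the HDGF columns are empty on chr14_KI270846v1 and chr7_KI270803v1.

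Set by parent chromosome, the shares of members differed from those of the chromosomes themselves, to an extent that differed between proteins. Chromosome 2 had 56 of the 321, and most of these were on chr2_KI270772v1. It held 14.3% of INTS13 members, beside a mean of 6.52% of the INTS13 peaks on main chromosomes. For INTS11 it was 15.2% beside 2.65%, for HDGF 8.82% (3 members) beside 4.32%, for ZEB1 34.8% beside 0.978% and for ZNF609 41.7% beside 0.622%. Chromosome 14 had 31 members, with 7.45% of INTS13 members beside 2.63%, 13.9% of INTS11 beside 1.11% and 2.94% of HDGF (1 member) beside 2.33%. For ZEB1 it was 17.4% (4 members) beside 0.409% and for ZNF609 12.5% (3 members) beside 0.249%. Chromosome 1 had 17 members, with 3.11% of INTS13 members beside 14.3% and 8.86% of INTS11 beside 25.3%. There HDGF had 11.8% beside 20.7%, ZEB1 0% beside 32.7% and ZNF609 4.17% (1 member) beside 33.3%. Chromosomes 4, 18 and X had none. The number and length of contigs differ between chromosomes, and their part in this was not tested.

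Merging peaks that overlapped by 1 bp or more gave 109 regions on the contigs. Of these 48 were of 1 library (44.0%), 21 of 2 libraries, 16 of 3, 9 of 4 and 15 of 5 or more libraries. By protein, 58 regions had 1 protein, 27 had 2, 17 had 3, 5 had 4 and 2 had all 5. Merging joins peaks through chains of overlaps, so the proteins of a region need not overlap one another. INTS13, which had the longest lists, was in 94 of the 109, and 11 of the 15 regions without it were of 1 library. The counts of regions in this paragraph were not set against main-chromosome regions, so they have no background. A region with a peak in both libraries of the protein was found 43 times among 101 INTS13 regions, 23 among 55 for INTS11, 4 among 29 for HDGF, 2 among 20 for ZEB1 and 3 among 20 for ZNF609.

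The highest peaks stood at 1 site on chr14_KI270846v1, in the region 840806-844028. The height of a peak is the authors' fold of its summit over background, with 1 background level per list, so it is read by its rank in that list. INTS13 replicate 1 had a fold of 4.93 there, from 56 fragments at the summit, and replicate 2 had 4.25 from 64 fragments. These rank in the top 0.179% and 0.214% of all peaks of their lists. ZEB1 replicate 1 had 4.49 from 40 fragments, in the top 0.372%. ZEB1 replicate 2 was lower, with 3.31 from 25 fragments, in the top 8.64%.

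INTS11 had folds of 3.24 from 46 fragments and 2.89 from 39 fragments at this site, in the top 1.53% and 4.94% of its lists. ZNF609 had 3.40 from 28 fragments and 3.36 from 24. HDGF had no peak there. Summits of 7 of the 8 lists lay within 841168-841323, and that of ZNF609 replicate 1 lay at 842711. In INTS13, INTS11 and ZEB1 this was the highest member in both libraries. Of the 321 members 3, or 0.935%, were in the top 1% of their list, and these were the INTS13 peaks and the peak of ZEB1 replicate 1 at this site.

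The region with a peak in all 10 lists was 41223-48739 on chr2_KI270772v1, made of 25 peaks over 7517 bp joined by chains of overlaps. No base in it was covered by all 10 lists. The only HDGF replicate 2 peak there (42845-43989) met no peak of INTS11 replicate 2 or of ZEB1 replicate 2. INTS13 had folds up to 3.55 and 3.20 in its 2 libraries, and INTS11 up to 2.96 and 2.60. HDGF had 3.35 and 4.41, ZEB1 2.74 and 3.06, and ZNF609 3.63 and 2.96. By percentile of the fold in their own lists these stood at 97.6 and 98.0 in INTS13 and at 96.5 and 85.8 in INTS11. HDGF stood at 70.9 and 94.1, ZEB1 at 68.4 and 81.9, and ZNF609 at 97.5 and 65.7. In HDGF replicate 2 and ZNF609 replicate 1 the highest member lay here, at summits of 42981 and 43029. In ZNF609 replicate 1 the peak with its summit at 45469 had the same fold. The highest summits of the 10 lists were 5159 bp apart, from 41644 to 46803. Lower summits of INTS11 replicate 1 (43002) and INTS13 (43256 and 43494) lay near those of HDGF (42981 and 43315) and ZNF609 (43029 and 43539). INTS11 replicate 2 and both ZEB1 libraries had none between 42981 and 43539. Whether the lists share a summit position was not tested.

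Another wide region, 29561-32476 on chr13_KI270843v1, held 10 peaks of 8 libraries, with all 5 proteins joined by chains of overlaps. The HDGF peak (32220-32476) overlapped only that of INTS11 replicate 1 (30855-32433). Folds were 2.51 and 2.61 in INTS13, 2.55 and 2.45 in INTS11, 2.58 and 2.83 in ZNF609, 3.75 in HDGF replicate 1 and 2.74 in ZEB1 replicate 1. HDGF replicate 2 and ZEB1 replicate 2 had no peak there. By percentile of the fold in their own lists INTS13 stood at 67.2 and 89.1, INTS11 at 86.7 and 76.5, and ZNF609 at 46.8 and 52.2. HDGF replicate 1 stood at 87.5 and ZEB1 replicate 1 at 68.4. The highest summits of the 8 libraries spread over 1804 bp with 30539 taken for ZNF609 replicate 1, which had the same fold at 31295.

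Other regions had peaks of fewer libraries. On chr1_KI270764v1 the region 44996-46265 held all 5 peaks of that contig, 1 from each of INTS13 (folds of 3.29 and 3.20), INTS11 (2.89 and 2.81) and ZNF609 replicate 1 (2.81). Their summits lay within 207 bp. On chr22_KI270876v1 the region 50574-53478 had peaks of INTS13 (2.60 and 2.74), INTS11 (2.07 and 2.74) and HDGF replicate 1 (3.35). The highest summits of these 5 lists were within 154 bp with 50958 taken for INTS11 replicate 1. Its other peak there, with a summit at 52954, had the same fold. By percentile of the fold in their own lists INTS13 stood at 73.5 and 92.8, INTS11 at 37.6 and 91.6, and HDGF replicate 1 at 70.9. On chr21_GL383581v2 the region 71345-72645 had both libraries of INTS13 (2.51 and 2.55), INTS11 (2.07 and 1.95) and HDGF (2.96 and 3.25), with summits within 485 bp. By percentile of the fold INTS13 stood at 67.2 and 86.5 in its lists, INTS11 at 37.6 and 9.53, and HDGF at 40.7 and 45.2. Folds of different proteins are thus not on 1 scale. ZEB1 and ZNF609 had no peak in these last 2 regions.

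On the heavy chain contig a further region, 826825-827948, was held by INTS13 (2.60 and 2.48), INTS11 (2.48 and 2.16) and ZNF609 replicate 2 (2.56). By percentile of the fold INTS13 stood at 73.5 and 83.4 in its lists, INTS11 at 83.2 and 41.6, and ZNF609 replicate 2 at 20.0. On chr2_KI270772v1 the region 33008-34941 had the highest member of ZNF609 replicate 2, a fold of 4.04 from 29 fragments with its summit at 33339. INTS13 had folds of 2.42 and 2.02 in that region and INTS11 2.69 and 2.45, while ZEB1 had 2.80 in replicate 2 alone. On chr15_GL383555v2 the region 195223-206294 ran over 11072 bp and joined 18 peaks, with INTS13 folds up to 3.29 and 3.07.

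**Figure D3:**
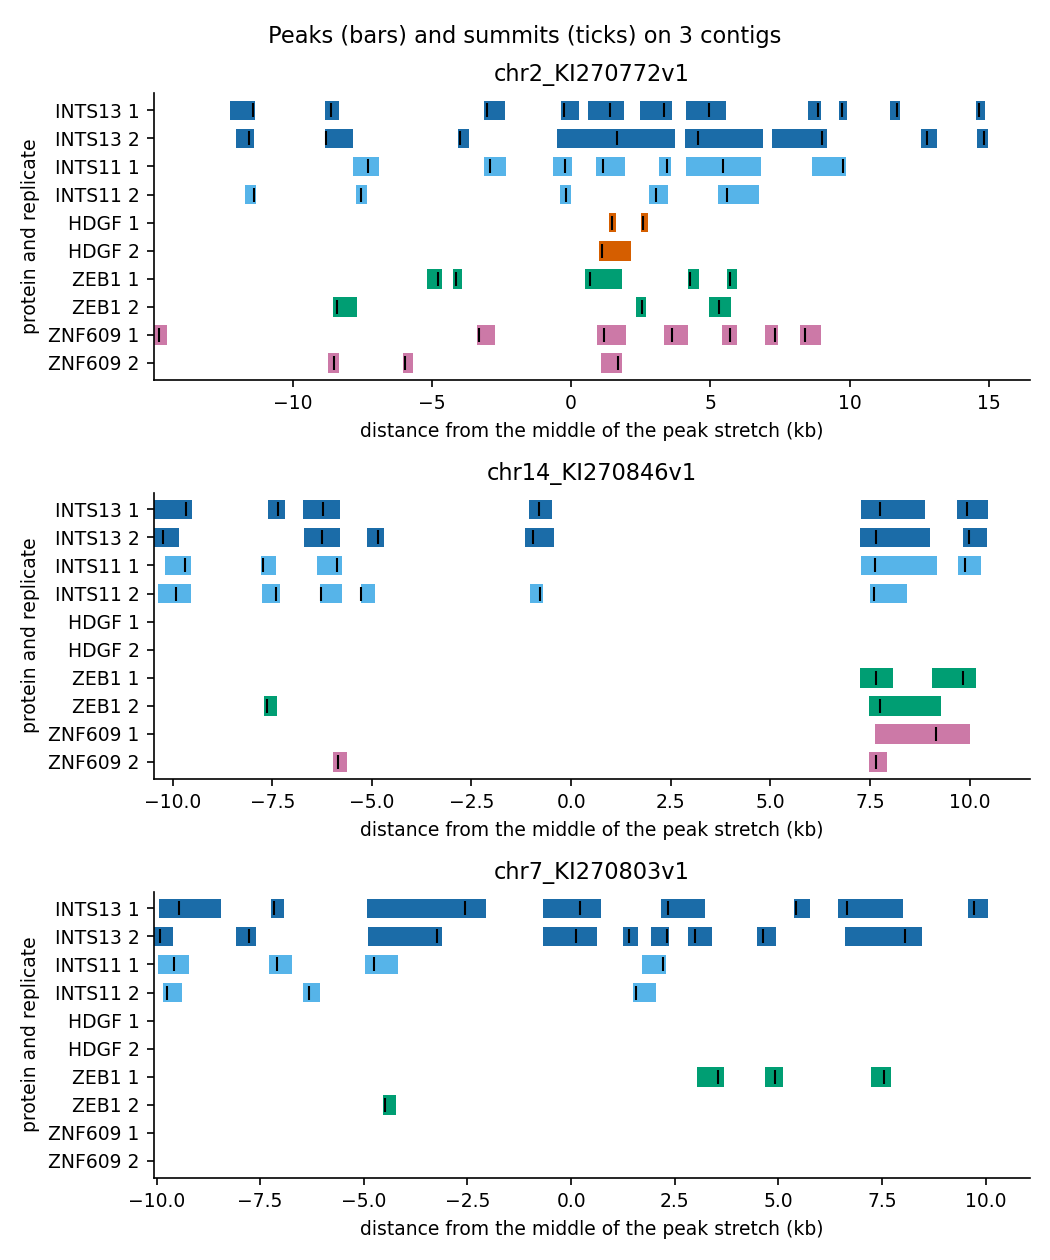
Peaks as bars and summits as ticks on the 3 contigs with the most peaks, 1 row per library, against the distance in kb from the middle of the stretch that holds peaks. On chr14_KI270846v1 (middle panel) 8 lists have a peak at the right-hand site and both HDGF rows are empty. On chr2_KI270772v1 (top panel) all 10 rows have peaks.

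The members as a whole spread over the full range of heights in their lists. Their folds ran from 1.70 to 4.93 and their widths from 239 to 4398 bp, with a median of 554 bp, and none was 10 kb or wider. In the top 10% of their list by fold were 41 of the 321, or 12.8%. The mean percentile was 57.6 and 56.2 in INTS13, 59.3 and 56.6 in INTS11, 53.9 and 32.4 in HDGF, 41.2 and 56.5 in ZEB1, and 46.3 and 44.1 in ZNF609. It was above 50 in 6 of 10 libraries, among them both of INTS13 and both of INTS11, and the mean over libraries was 0.418 points above 50. An exact two-sided sign-flip permutation test over the 10 libraries gave p = 0.889, adjusted 0.889. Without chr2_KI270772v1 the mean was 3.38 points below 50, with p = 0.344 by the same exact test. With main-chromosome peaks weighted to the parent chromosomes of the members it was 4.50 points above 50, with an exact p of 0.182.

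**Figure D4:**
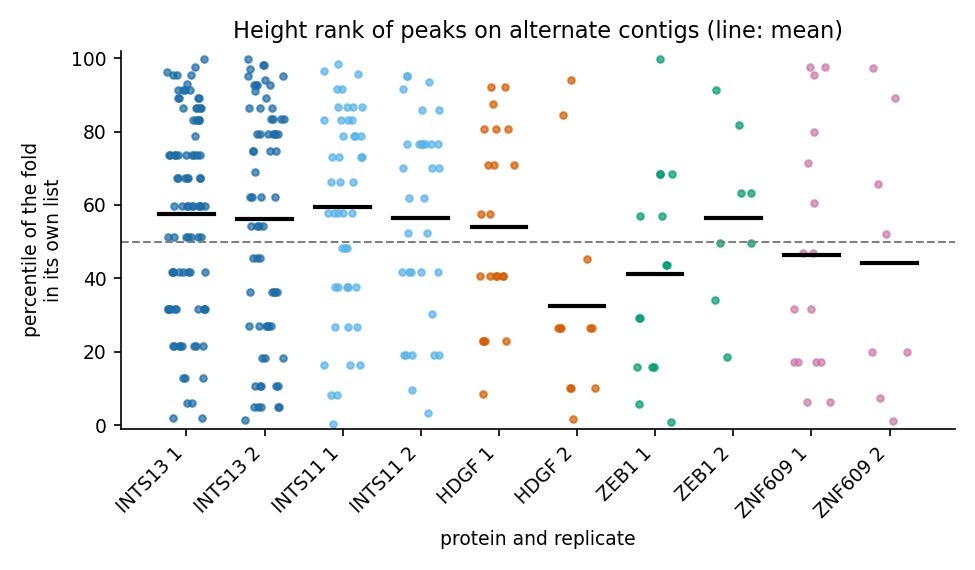
Percentile of each member's fold among all peaks of its own list (vertical axis), by protein and replicate. Points are peaks, black lines are means and the dashed line marks 50. Means lie above 50 in 6 of 10 libraries and lowest in HDGF replicate 2, at 32.4.

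Members with a −log10 q of 5 or more numbered 47 of the 321 (14.6%), and 33 of the 47 were of INTS13. INTS13 had 20 of 93 (21.5%) and 13 of 68 (19.1%), beside 15.1% and 12.1% on the main chromosomes. INTS11 had 5 of 46 (10.9%) and 4 of 33 (12.1%), beside 9.32% and 9.52%. ZNF609 had 3 of 16 and 1 of 8, beside 5.41% and 6.48%, and ZEB1 1 of 15 and 0 of 8, beside 6.66% and 5.09%. HDGF had 0 of 22 and 0 of 12, beside 6.19% and 4.47%. A count of 0 allows a share of up to 13.6% for HDGF replicate 1, 25% for HDGF replicate 2 and 37.5% for ZEB1 replicate 2, so a difference from the main chromosomes was not detectable there.

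The share of members past this threshold was above that of the main chromosomes in 7 of 10 libraries, by 2.12 percentage points on average. By an exact two-sided sign-flip test over 10 libraries p was 0.322, adjusted 0.560. Without chr2_KI270772v1 the mean difference was -0.240 points, with an exact p of 0.867. Median widths of the members were 578 and 697 bp in INTS13, 643 and 478 in INTS11, 331.5 and 367 in HDGF, 430 and 548.5 in ZEB1, and 598.5 and 416 in ZNF609. Against the median main-chromosome peak of the same list they differed by -0.07 on the log2 scale on average, with 5 of 10 libraries wider and 5 narrower (exact sign-flip p = 0.336, adjusted 0.560). With main chromosomes weighted to the parents the sign turned, to 0.077 (exact p = 0.391). Among peaks with a −log10 q of 5 or more, members in 7 libraries were narrower on average, by a log2 difference of -0.86 (exact sign-flip p = 0.0313, not adjusted). These libraries held 20 and 13 such members in INTS13, 5 and 4 in INTS11, 3 and 1 in ZNF609, and 1 in ZEB1 replicate 1. The medians of ZNF609 replicate 2 and ZEB1 replicate 1 are thus single peaks, and libraries of 1 protein were counted separately.

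A member met a peak of the other library of its protein in 61.3% and 67.6% of cases in INTS13, beside 59.6% and 66.7% on the main chromosomes. INTS11 had 50% and 72.7%, beside 31.4% and 61.7%. HDGF had 22.7% and 33.3%, beside 33.6% and 45.6%, and ZEB1 20.0% and 25%, beside 32.7% and 39.0%. ZNF609 had 25% and 37.5%, beside 24.3% and 45.7%. INTS11 was above its background in both libraries. HDGF (5 of 22 and 4 of 12 members) and ZEB1 (3 of 15 and 2 of 8) were below theirs in both. The 2 lists of a protein give 1 overlap, so the values of its 2 libraries are not independent. Over the 5 proteins the mean difference was -2.49 percentage points, positive in 2 of 5, with an exact sign-flip p of 0.6875 (adjusted 0.859). A set of 5 values cannot give a p below 0.0625. With main chromosomes weighted to the parents the mean difference turned to 6.27 points (exact p = 0.4375). Among peaks with a −log10 q of 5 or more it was -23.1 points over 3 proteins (exact p = 0.25, the smallest that 3 values can give).

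Members of the other 4 proteins often lay on an INTS13 peak of the same replicate number. For INTS11 this held for 84.8% and 72.7% of members, beside 72.8% and 73.7% of main-chromosome peaks. For HDGF it was 68.2% and 41.7%, beside 62.1% and 62.8%, for ZEB1 53.3% and 75.0%, beside 79.3% and 76.1%, and for ZNF609 75.0% and 62.5%, beside 71.2% and 74.8%. Of the 8 libraries, 3 were above their background and 5 below it. No test was made, since the 4 proteins share the INTS13 lists.

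The gene table gives a chromosome and no contig for each gene, so contig peaks could not be put to genes through it in general. For the T-cell receptor beta contig a match of numbers was possible. Of 85 beta-chain segments the table lists under chromosome 7, 79 lie between 142299011 and 142813287, and 6 carry far smaller positions. Of these 6, the variable segments TRBV6-9 (510990-511422), TRBV7-8 (515605-516088) and TRBV5-8 (523822-524288) have numbers inside the stretch of peaks on chr7_KI270803v1. Read as contig positions, TRBV6-9 was overlapped by 4 peaks, of INTS13, INTS11 and ZEB1, TRBV7-8 by 2 INTS13 peaks and TRBV5-8 by 1 INTS13 peak. Merged peaks cover 66.3% of that stretch, so an overlap of segments inside it carries little weight. The other 3 segments, TRBV3-2, TRBV4-3 and TRBV6-2, have numbers outside the stretch and 0 peaks. The table names no contig, so this reading rests on the numbers alone.

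The main-chromosome copies of 9 chosen loci known to have alternate contigs were nearly free of peaks, apart from HLA class II. Over these 9 loci, 5.67 Mb in all, the 10 lists together had 63 peaks, of which 52 were in the HLA class II locus, and 5 of the 9 loci had 0. Most of these loci hold immune genes, and the backgrounds given here and below were not matched for expression in HEK293T cells. The rest of the same chromosomes, up to the last peak, had between 288 and 1049 peaks per Mb from the 10 lists. This comparison was chosen after the first gene counts were seen. The loci were taken from 7 gene families and, after their values were seen, the immunoglobulin heavy chain and T-cell receptor beta loci. Where each of the 39 contigs lies on its chromosome is not used here, so most contigs were not set against their own locus.

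The HLA class I genes present peptides to T cells. From HLA-F to HLA-B, at 29723434-31353875 on chromosome 6 (GRCh38), there were 5 peaks in the 10 lists, or 3.07 per Mb, against 577 per Mb on the rest of the chromosome. The longest stretch of chromosome 6 without a peak of any list, 2.75 Mb from 28507845 to 31254287, covered most of this locus. HLA class I was the only one of these loci to lie in the longest such stretch of its chromosome; the stretches given below for the others ranked second or lower. Of the 47 protein-coding genes that start in it, 0 had an INTS13 peak of both lists within 1 kb of an end, against 65.6% of 1002 on the rest of chromosome 6 and 65.9% over all protein-coding genes. Beside this, chr6_GL000256v2, a contig of the MHC, had 5 members at 1769776-1771837, with 1 and 1 of INTS13, 2 of INTS11 replicate 1 and 1 of HDGF replicate 2.

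The HLA class II locus (32439887-33075990) had 52 peaks, or 81.7 per Mb, against 573. Of its 18 protein-coding genes 0 had INTS13 in both lists. HLA-DRB1 and HLA-DRB5, which encode beta chains of HLA-DR, had an INTS13 peak in replicate 1 alone.

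The LILR genes, receptors of leukocytes, and the KIR genes, receptors of natural killer cells, lie side by side on chromosome 19. Neither LILR (54216278-54662985) nor KIR (54724442-54850443) had a peak in any of the 10 lists, against 772 and 768 per Mb on the rest of the chromosome. Both lay in 1 stretch of 1.06 Mb without peaks, from 54025148 to 55084397. None of their 17 and 7 protein-coding genes had INTS13, against 76.4% and 75.8% elsewhere on chromosome 19.

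On chromosome 17 the inversion at 17q21.31, which holds the tau gene MAPT, had 2 peaks in the 10 lists at 45784320-46590669, or 2.48 per Mb, against 645. The chemokine genes CCL3 and CCL4 with their copies, at 36088256-36211063, had 0 peaks and lay in a stretch of 3.09 Mb without any. On chromosome 22 the theta glutathione transferases with DDT and MIF, at 23894383-23989115, had 0 peaks against 1049 per Mb elsewhere.

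For the immunoglobulin heavy chain locus on chromosome 14 (105586937-106879844), 4 peaks were listed, or 3.09 per Mb against 288, and a stretch of 1.33 Mb had none. The contig of that locus, chr14_KI270846v1, had 30. For the T-cell receptor beta locus on chromosome 7 (142299011-142813287), 0 peaks were listed, against 518 per Mb on the rest of chromosome 7, and the stretch without peaks was 1.05 Mb long. Its contig chr7_KI270803v1 had 28. In both cases peaks were on the contig and few or none were on the chromosome. Both contigs are among those with the most peaks, and both loci were added after their values were seen. High counts on these contigs thus came with the choice and do not stand for the other contigs. Whether most other contigs differ from their own loci in this way was not tested.

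Of the 68 genes named in the 7 families, 54 had positions at their locus on the chromosome. The other 14, among them GSTT1, HLA-DRB3, LILRA3 and CCL3L1, carry numbers more than 2 Mb away that may be positions on a contig, and they were left out. Genes listed in that way stayed in the counts for the rest of a chromosome and for all protein-coding genes. Of the 54, 0 had a peak of both lists for INTS13, INTS11, HDGF, ZEB1 or ZNF609. Over all 19974 protein-coding genes these shares were 65.9%, 20.0%, 26.6%, 4.94% and 2.18%. A peak of either list was found at 2 of the 54 for INTS13, the HLA-DRB genes above, and at 0 for the other 4 proteins. Over the 9 loci, 0 of 112 protein-coding genes had INTS13 in both lists. The placing of reads between a contig and its chromosome, and filters before deposit, were not tested.

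**Figure D5:**
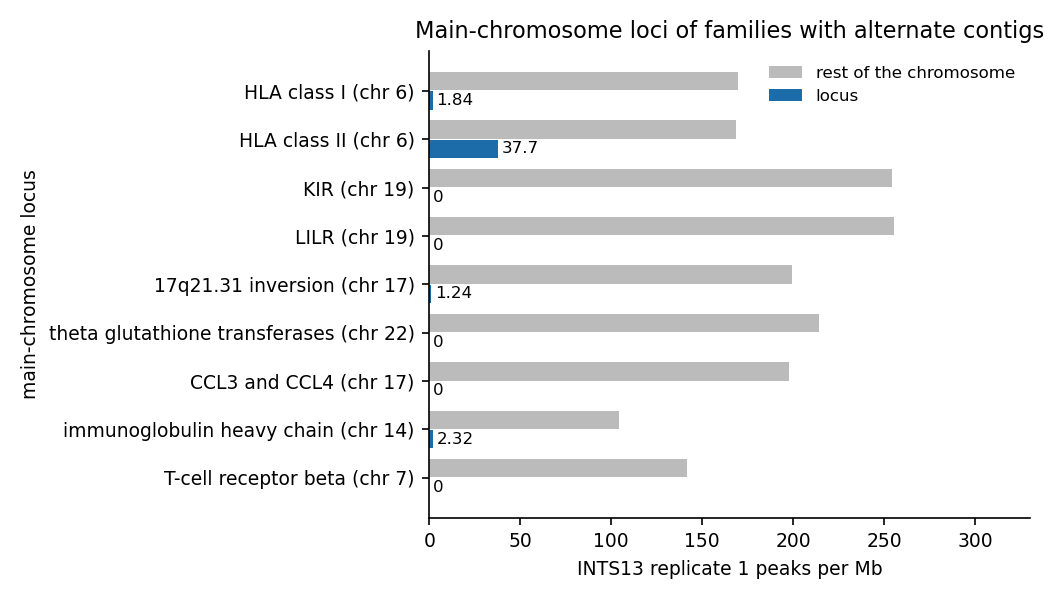
INTS13 replicate 1 peaks per Mb (horizontal axis) in 9 main-chromosome loci of families with alternate contigs (blue, value printed) and on the rest of the same chromosome (grey). HLA class II is the highest of the loci, at 37.7, and the other 8 lie between 0 and 2.32.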

How the data were processed

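ChIP-seq of 5 proteins in HEK293T cells gave 10 peak lists, 1 per library. Per the submitters' processing notes FastQC, Trimmomatic, Bowtie, Picard and MACS2 were used. Not given in the sources used here are their versions, the build, the control, the thresholds and the treatment of reads that fit several places. GRCh38 was inferred from the contig names. The deposited fold is a linear ratio of summit to background, and the deposited p and q values are on a −log10 scale. The deposited score is 10 times the −log10 q. Gaps in the deposited peak numbers show that between 407 and 1898 peaks per list are missing, by a filter not stated. Each deposited fold equalled fragments plus 1 over background plus 1, with 1 background per list, of 3.31 to 14.3 fragments, so summit fragments were recovered. The deposited p values fitted the same single background. Neither fold nor p thus held a correction for input at the place of a peak. Total read depth is unknown.

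Lists were compared with Python 3.11.15, numpy 2.4.6, pandas 2.3.3 and SciPy 1.17.1. Overlap meant 1 bp or more, and a gene counted where peaks of both lists fell within 1 kb of an end. Genes came from RefSeq for GRCh38.p14, without strand. Groups were taken from the sample titles. The contigs named were the 10 with most peaks, those in all lists and each protein's leading contig. Peaks named were the highest per protein on the leading 5 contigs, and shared regions of 5 or more libraries were added. Members, families and lists were chosen with earlier results of these data known. Exact tests were tested on simulated data. Alternatives left out a replicate or the leading contig, raised the q threshold, counted bp, weighted main chromosomes or asked for 50% overlap. Contig sequences were not used here.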

Additional observations from a re-analysis of the deposited data

How the results depend on the processing

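Without chr2_KI270772v1 the share of peaks on alternate contigs was 0.0186% in INTS13, 0.0232% in INTS11, 0.0116% in HDGF, 0.0151% in ZEB1 and 0.0192% in ZNF609, the height difference was -3.38 points (exact p = 0.344) and the difference past −log10 q of 5 was -0.240 points (exact p = 0.867). Among peaks with a −log10 q of 5 or more the share was 0.0316% in INTS13, 0.0335% in INTS11, 0% in HDGF, 0.0143% in ZEB1 and 0.0892% in ZNF609. Members were then narrower by a log2 difference of -0.86 (exact p = 0.0313, 7 libraries). With the INTS13 lists cut at the same q, the difference in overlap with INTS13 was -8.31 points for INTS11, 16.0 for ZEB1 and -33.4 for ZNF609. These values rest on 5 and 4 members of INTS11, 3 and 1 of ZNF609, and 1 member of ZEB1, in replicate 1. HDGF had no member past that threshold, so its overlap and the test of pairs could not be computed there. By covered bp the share was 0.0212% in INTS11 and 0.0259% in ZNF609, and the difference within proteins was 0.25 (exact p = 0.00317). Counted as peaks without chr2_KI270772v1, that difference was 0.38 (exact p = 0.177). With main chromosomes weighted to the parent chromosomes the width difference was 0.077 (exact p = 0.391) and the difference in replicate overlap 6.27 points (exact p = 0.4375), both of opposite sign to the values above.

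A protein with 1 library left has no pair, so leaving out a library removed its whole protein from the difference within proteins and from replicate overlap. The difference within proteins then lay between 0.32 and 0.45 on the log2 scale, with exact p between 0.0286 and 0.314, and p was below 0.05 without INTS11 or without ZEB1. The difference in replicate overlap lay between -6.81 and 0.223 points, positive without ZEB1. Leaving out single libraries, the height difference lay between -0.571 and 2.42 points, negative without either INTS13 library, either INTS11 library or ZEB1 replicate 2. With a peak of either list in place of both, added after seeing the data, 2 HLA class II genes had INTS13. The cause of these changes was not tested. No paired analysis was possible because no test compared groups that share replicate numbers, beyond the pairing within a library that the sign-flip tests already use. Lists with 8 to 22 members cannot show small differences.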
